A study of Schizosaccharomyces pombe with 6 samples.

Results

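The genes described here make small stable RNAs of fission yeast: the 5S ribosomal RNA, the spliceosomal small nuclear RNAs (snRNAs) and the small nucleolar RNAs (snoRNAs). Genes for tRNA and for the RNAs of the signal recognition particle, RNase P and RNase MRP are not among them. They were taken from the ASM294v3 annotation by biotype (snRNA, snoRNA, or rRNA with 5S ribosomal RNA as product, outside the mitochondrion), which gave 108 of 12606 nuclear genes. Of these, 36 are 5S genes, 6 are snRNA genes and 66 are snoRNA genes. The snRNA genes are snu1, snu2, snu4, snu5 and snu6, which code for U1, U2, U4, U5 and U6, and snR48, which the annotation files under snRNA and which lies in an intron of the ribosomal protein gene rps3. The snoRNA genes include 7 that are annotated as primary transcripts, and 9 snoRNA genes lie in those. RNA polymerase III (Pol III) makes 5S and U6, 37 genes in all. The other 71 were counted as RNA polymerase II (Pol II) members. This was done by gene class, and the polymerase of each gene was not checked.

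The study mapped 2 SUMO ligases of Schizosaccharomyces pombe by chromatin immunoprecipitation and sequencing (ChIP-seq): Pli1, of the PIAS family, and Nse2, a subunit of the Smc5/6 complex. The strains were Pli1-12Pk, Nse2-12Pk and an untagged control, with 12 copies of the Pk epitope on the ligase as the names give it. All were grown to log phase in rich medium (YES) with no further treatment, mixed with a budding yeast Ku70-cMyc culture as calibrator, crosslinked with formaldehyde and precipitated with the same anti-Pk antibody. There was 1 ChIP library per strain, so no value below has a replicate and no test was made between strains or gene classes. Intervals are exact 95% binomial (Clopper-Pearson) intervals and cover counting error only.

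5S RNA is part of the large ribosomal subunit. Its genes carry an internal promoter that is bound by TFIIIA, which brings in TFIIIC and TFIIIB, the factors that also serve tRNA genes. The U6 gene of fission yeast holds a TFIIIC site, the B-box, in its intron. The other snRNAs pair with pre-mRNA and with each other in the spliceosome, and snoRNAs guide methylation and pseudouridylation of ribosomal RNA or, like U3 and U14, take part in its cleavage.

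The deposited lists give regions with a summit, the position of highest signal. The untagged list had 3535 peaks (median length 559 bp), while the 299 Pli1 and 62 Nse2 regions had median lengths of 28719 and 69235 bp and covered 99.3% and 99.8% of the genome. All 108 genes lay wholly within regions of both tagged lists, so distance to the summit was used. A gene counted as near a summit at 200 bp or less from its nearest edge. Scores are the authors' and rank regions within a list only. Read depths were not given in the labels or files.

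The 5S genes near a summit are shown first, because they share their coding sequence and differ in what lies before it. The most common 5S sequence, from the RefSeq ASM294v3 genome, is 119 bases long.
most common 5S sequence: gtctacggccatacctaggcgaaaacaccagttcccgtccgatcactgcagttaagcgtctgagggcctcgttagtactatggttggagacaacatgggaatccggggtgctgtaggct
Over these 119 bases, 23 of the 36 copies were identical to it, and 34 copies departed from it at 4 bases or fewer, unaligned bases included. SPRRNA.41 (95 identical bases) and SPRRNA.54 (85) differed most. Annotated lengths ran from 80 to 440 bp and only 7 copies were annotated at 119 bp, so positions in 5S are counted from the first base of the aligned unit. The 6 copies with a summit within 200 bp follow, with the first 60 bases of 5S in capitals after the 60 bases before it (RefSeq, ASM294v3).
SPRRNA.15, chrI:3547959-3548078, minus strand: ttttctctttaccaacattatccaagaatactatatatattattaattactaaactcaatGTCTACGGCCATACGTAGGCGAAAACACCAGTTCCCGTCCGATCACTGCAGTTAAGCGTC
SPRRNA.28, chrII:464467-464586, plus strand: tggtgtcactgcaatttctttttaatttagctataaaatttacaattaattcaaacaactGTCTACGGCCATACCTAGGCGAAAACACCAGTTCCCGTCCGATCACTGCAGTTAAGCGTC
SPRRNA.34, chrII:2261430-2261549, minus strand: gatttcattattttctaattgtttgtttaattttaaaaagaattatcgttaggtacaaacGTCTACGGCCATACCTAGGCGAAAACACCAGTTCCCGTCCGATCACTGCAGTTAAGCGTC
SPRRNA.39, chrII:2032350-2032469, plus strand: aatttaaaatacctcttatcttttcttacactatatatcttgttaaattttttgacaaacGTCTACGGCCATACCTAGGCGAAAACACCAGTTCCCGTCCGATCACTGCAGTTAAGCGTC
SPRRNA.06, chrIII:1702064-1702183, plus strand: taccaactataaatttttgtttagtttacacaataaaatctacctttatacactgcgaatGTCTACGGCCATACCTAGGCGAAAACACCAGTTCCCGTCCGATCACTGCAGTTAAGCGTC
SPRRNA.26, chrIII:926082-926201, plus strand: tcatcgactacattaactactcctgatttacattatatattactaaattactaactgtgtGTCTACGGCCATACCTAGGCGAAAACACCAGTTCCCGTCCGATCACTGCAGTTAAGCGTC
Of these copies, SPRRNA.15 departed from the common sequence, by C15G and A74G (common base, position from the 5′ end of 5S, base of this copy).

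The snRNA and snoRNA genes near a Pli1 summit have sequences of their own, shown from 75 bases before to 75 bases after the summit with the gene in capitals (RefSeq, ASM294v3, in the direction of the gene).
snu2, chrI:959440-959590, minus strand: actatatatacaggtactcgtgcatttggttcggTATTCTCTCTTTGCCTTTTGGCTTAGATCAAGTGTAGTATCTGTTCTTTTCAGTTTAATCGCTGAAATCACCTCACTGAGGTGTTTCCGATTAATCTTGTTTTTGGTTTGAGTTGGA
snoU14, chrII:1308579-1308729, plus strand: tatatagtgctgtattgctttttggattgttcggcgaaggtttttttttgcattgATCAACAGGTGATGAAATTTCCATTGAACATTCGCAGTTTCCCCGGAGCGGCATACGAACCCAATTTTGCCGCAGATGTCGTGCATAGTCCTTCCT
snoR69b, chrI:4154792-4154942, plus strand: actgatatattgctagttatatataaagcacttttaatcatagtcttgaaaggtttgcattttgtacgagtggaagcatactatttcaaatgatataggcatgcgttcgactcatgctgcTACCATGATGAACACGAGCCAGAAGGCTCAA
snoZ3, chrI:527535-527685, plus strand: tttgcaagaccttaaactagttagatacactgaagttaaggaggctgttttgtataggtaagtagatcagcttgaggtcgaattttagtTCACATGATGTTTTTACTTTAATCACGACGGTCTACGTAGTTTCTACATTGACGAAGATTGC
The U6 gene is shown whole, since it is the Pol III member outside the 5S family. The capitals mark its best match to the B-box consensus, with 1 mismatch, which starts at base 68 between exons of 46 and 48 bases.
snu6, chrI:2562276-2562419, minus strand: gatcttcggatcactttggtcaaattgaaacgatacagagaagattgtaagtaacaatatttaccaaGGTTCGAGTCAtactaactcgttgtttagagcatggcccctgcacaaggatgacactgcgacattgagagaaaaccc

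Pli1 summits lay at a few of these genes, in every class. Of the 299 Pli1 summits, 9 (3.01%, interval 1.39 to 5.64%) fell in the 200 bp windows around the 108 genes, which make up 0.454% of the genome. They were near 5 of 36 5S genes (13.9%, 4.67 to 29.5%), 1 of 6 snRNA genes, snu2, and 4 of 66 snoRNA genes (6.06%, 1.68 to 14.8%). Among all nuclear genes the share was 3.75%, among protein-coding genes 4.6% and among the 171 tRNA genes 14%. Long genes have more room for a summit. Among the other nuclear genes of 80 to 440 bp, the span of annotated 5S lengths, 43 of 2723 (1.58%) were near a Pli1 summit. Measured from the midpoint of each gene, the share was 8.33% for 5S, 6.06% for snoRNA, 14% for tRNA, 1.25% for protein-coding and 1.27% for all nuclear genes. The intervals of 5S, snoRNA and tRNA genes overlap.

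**Figure D1:**
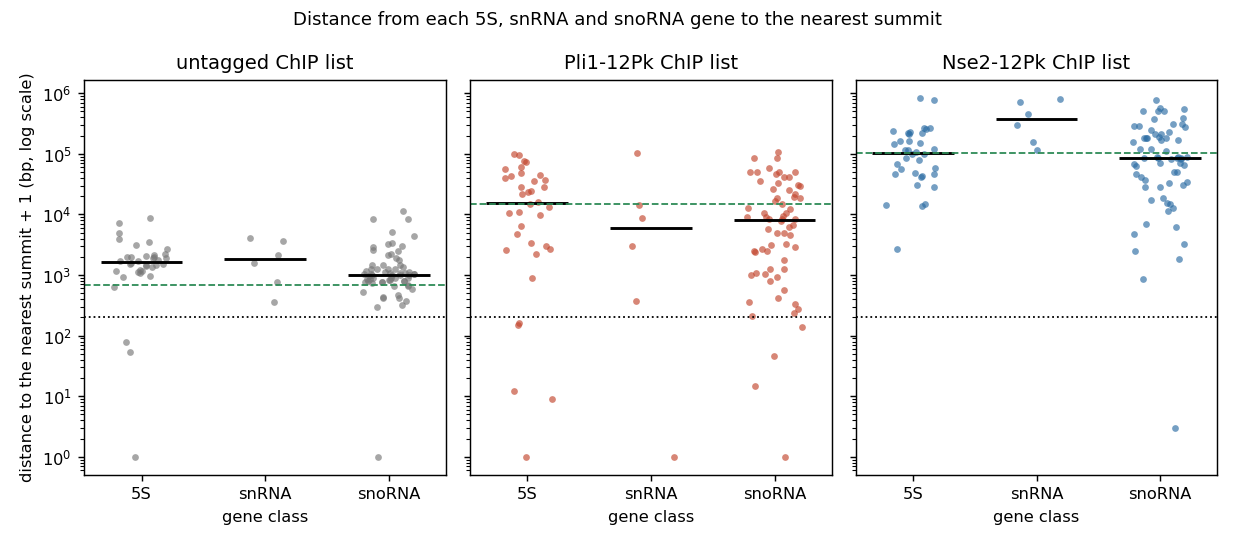
Distance from each 5S, snRNA and snoRNA gene to the nearest summit of the untagged, Pli1-12Pk and Nse2-12Pk lists, plus 1 bp, on a log axis. Each point is a gene, black bars are class medians, the dotted line marks 200 bp and the dashed green line the median of all nuclear genes. Most genes of each class lie above the dotted line in all 3 lists, and for Pli1 the snoRNA median (8018 bp) lies below that of all genes (14757.5 bp).

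At 3 of the 5 5S genes the Pli1 summit lay in the 5S unit or within 11 bp of it. In SPRRNA.15 it was at base 24 of 5S (chromosome I, position 3547995, score 1804, rank 211 of 299). In SPRRNA.28 it was 8 bp before the first base (chromosome II, position 464519, score 2520, rank 153) and in SPRRNA.34 it was 11 bp before it (chromosome II, position 2261500, score 1293, rank 258). None of these 3 summits lay in an untagged peak. They ranked in the lower part or near the middle of the Pli1 list.

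The other 2 summits lay closer to a tRNA gene than to 5S. The summit 161 bp before SPRRNA.39 (position 2032249, score 2855, rank 124) was 16 bp from SPBTRNAASN.02, and the one 149 bp before SPRRNA.06 (chromosome III, position 1701974, score 4434, rank 58) was 2 bp from SPCTRNAASN.06. Both are asparagine tRNA genes, and both summits lay in untagged peaks. When a summit counted for its nearest gene only, long non-coding RNA genes left aside, 3 5S genes were near a Pli1 summit, and the count was also 3 with summits in untagged peaks left out.

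A tRNA gene lay within 500 bp of the 5S unit at 6 of the 36 5S genes, on the same strand in all 6. A Pli1 summit was near 3 of these 6 (SPRRNA.28, SPRRNA.39 and SPRRNA.06) and near 2 of the 30 others (SPRRNA.15 and SPRRNA.34). The intervals, 11.8 to 88.2% and 0.818 to 22.1%, overlap, and the difference was not tested. Measured from midpoints the counts were 1 of 6 and 2 of 30. As given above, the summits at SPRRNA.39 and SPRRNA.06 lay closer to the tRNA gene. For the untagged list the counts were 3 of 6 (SPRRNA.39, SPRRNA.06 and SPRRNA.26; 11.8 to 88.2%) and 0 of 30 (up to 11.6%). The tRNA genes at SPRRNA.28 and SPRRNA.26 lay 218 bp from the 5S unit.

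**Figure D2:**
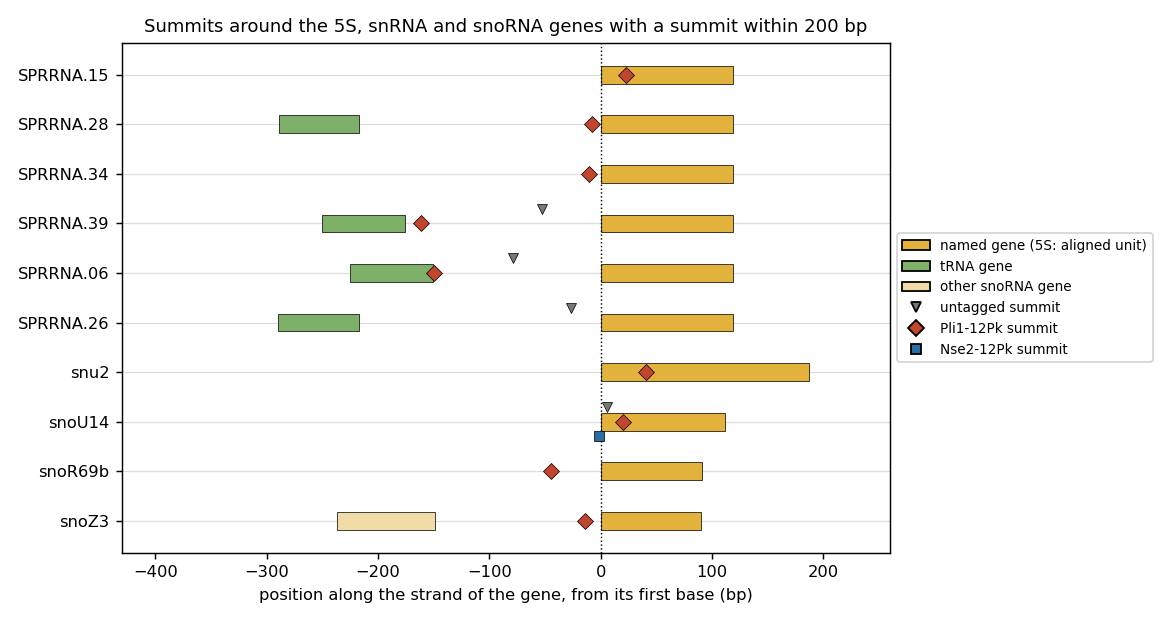
Summits around the 5S, snRNA and snoRNA genes that had a summit within 200 bp, aligned at the first base of each gene and read along its strand, in bp. Yellow bars are the named genes (for 5S the 119-base unit), green bars tRNA genes and pale bars another snoRNA gene, and symbols mark summits of each list. Pli1 summits lie from 45 bp before to 41 bp after the first base, except at SPRRNA.39 and SPRRNA.06, where they lie at the tRNA gene.

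Among the spliceosomal genes, snu2 held a Pli1 summit at base 42 of its 187 bases (chromosome I, position 959515, score 2738, rank 134), outside untagged peaks. U2 is the RNA that pairs with the intron branch site. The nearest Pli1 summit was 2970 bp from snu4, 8863 bp from snu5, 14053 bp from snu1 and 101542 bp from snu6. The U6 gene was thus the most distant of the spliceosomal genes from a Pli1 summit. The snR48 gene was 369 bp from one.

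The snoRNA genes near a Pli1 summit were snoU14, snoR69b, snoZ3 and snoZ4. The summit in snoU14, the U14 gene, was at base 21 (chromosome II, position 1308654) and was among the highest of the list (score 16516, rank 11). At snoR69b the summit lay 45 bp before the gene (chromosome I, position 4154867, score 4030, rank 70). A single summit served snoZ3, 14 bp before it, and snoZ4, 136 bp after it (position 527610, score 3798, rank 77). These 2 belong to a run of snoRNA genes on chromosome I, and psf3, which codes for a subunit of the GINS replication complex, lay 172 bp from the same summit. Counting snoRNA genes within 1000 bp of each other as 1 locus, 3 of 53 loci were near a Pli1 summit. The summit at snoZ3 and snoZ4 also lay in snoZ, annotated as a long non-coding RNA gene. Such genes were left aside when hosts were sought, so snoZ3 and snoZ4 do not count as lying in a primary transcript. None of the 19 box H/ACA genes, 9 snoRNA genes in annotated snoRNA primary transcripts or 12 in introns of protein-coding genes was near a Pli1 summit. These groups overlap in part, and their counts of 0 allow shares of up to 17.6%, 33.6% and 26.5%, which include that of all snoRNA genes. Just beyond 200 bp were snu32 (a U3 gene, 210 bp), snR93 (239 bp) and sno52 (276 bp).

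The 7 Pli1 summits whose nearest gene was one of these 108 all lay within 50 bp of its first base, with a median of 8 bp before it (range, 45 bp before to 41 bp after). For 5S the first base is that of the aligned unit, and for other genes the annotated start. Counted from the annotated start of SPRRNA.15, its summit was at base 55 and so beyond 50 bp. Of 19 summits whose nearest gene was a tRNA gene, 10 lay within 50 bp of the first base. The number was 0 of 29 for ribosomal protein genes, where the median summit lay 446 bp after the annotated start, and 0 of 180 for other protein-coding genes, with a median of 1324.5 bp. Nearest genes were sought within 200 bp of a summit, with long non-coding RNA genes left aside. A short gene leaves little room for a summit far from its start. This comparison was chosen after the positions were seen.

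Nse2 summits were near 1 of the 108 genes. The Nse2 summit at snoU14 lay 2 bp before the gene (position 1308632, score 24090, rank 13 of 62). No 5S gene (0 of 36, which allows a share of up to 9.74%) and no snRNA gene was near one, beside 0.682% of all nuclear genes, 0.821% of protein-coding genes and 2.34% of tRNA genes. The nearest 5S gene was SPRRNA.36 at 2650 bp. Beyond snoU14 the nearest genes were snoR39b (855 bp), sno52 (1829 bp) and the primary transcript SPNCRNA.1650 (2487 bp), and among spliceosomal snRNA genes snu2 (115748 bp).

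At snoU14 the lists coincided. Its untagged summit lay at base 7 of the gene (position 1308640, score 742, rank 64 of 3535, in a peak of 1047 bp). The Pli1 summit was 14 bp from it and the Nse2 summit 8 bp, and these 2 were 22 bp apart. The part that the signal of the strain without a tag has in the tagged lists was not tested. At SPRRNA.39 the untagged and Pli1 summits were 108 bp apart and at SPRRNA.06 71 bp. In both, the untagged summit was closer to 5S than the Pli1 summit was.

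Untagged peaks were sparse on the genes themselves. They touched 3 of 36 5S genes (8.33%, 1.75 to 22.5%) and 1 of 72 snRNA and snoRNA genes (1.39%, 0.0352 to 7.5%). The share was 40.6% of all nuclear genes, 54.3% of protein-coding genes and 7.6% of tRNA genes. Of the other nuclear genes of 80 to 440 bp, 20.7% were touched. Per base, the untagged peaks covered 5.96% of 5S genes and 0.813% of snRNA and snoRNA genes, beside 7.51% of tRNA genes, 15.8% of the genes of 80 to 440 bp and 18.7% of the genome. An untagged summit was near 3 5S genes, no snRNA gene and 1 snoRNA gene, beside 38.2% of all nuclear genes, 54.1% of protein-coding genes and 5.26% of tRNA genes.

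The touched 5S genes were SPRRNA.26, SPRRNA.39 and SPRRNA.06. Their untagged summits lay before the 5S unit, at 27, 53 and 79 bp, with scores of 61, 64 and 109 and ranks of 2994, 2947 and 2081 of 3535. These are low ranks, while that of snoU14 was high. The summit at SPRRNA.06 was 73 bp from the tRNA gene SPCTRNAASN.06 and 78 bp from the annotated 5S gene. When a summit counted for its nearest gene only, 2 5S genes were near an untagged summit. No spliceosomal gene was touched, and the nearest untagged summit was 771 bp from snu4, 1549 bp from snu2, 2147 bp from snu6, 3688 bp from snu5 and 4026 bp from snu1.

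Members inside protein-coding genes were untouched also where a peak touched the host. With snR48, 13 members lie in introns of 13 protein-coding genes on the same strand. Untagged peaks touched 9 of the 13 hosts, beside 54.3% of all protein-coding genes. They touched 0 of the 13 members, beside 20.7% of the other nuclear genes of 80 to 440 bp. For the 12 snoRNA genes among these members, 0 allows a share of up to 26.5%, which includes that 20.7%. The nearest peak was 78 to 1024 bp from the member (median 602 bp). The closest summits to such members were at the hosts of snoU24b (cpc2, which codes for the RACK1 protein; 321 bp) and of snR48 (rps3; 362 bp). Outside such hosts, snoZ16 was 295 bp from an untagged summit, which lay in mrp1, the gene for RNase MRP RNA. On the opposite strand, 11 members lie in or overlap 11 protein-coding genes, and untagged peaks touched 7 of these hosts and 0 of the members. Hosts are longer than the members and so have more room for a peak.

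**Figure D3:**
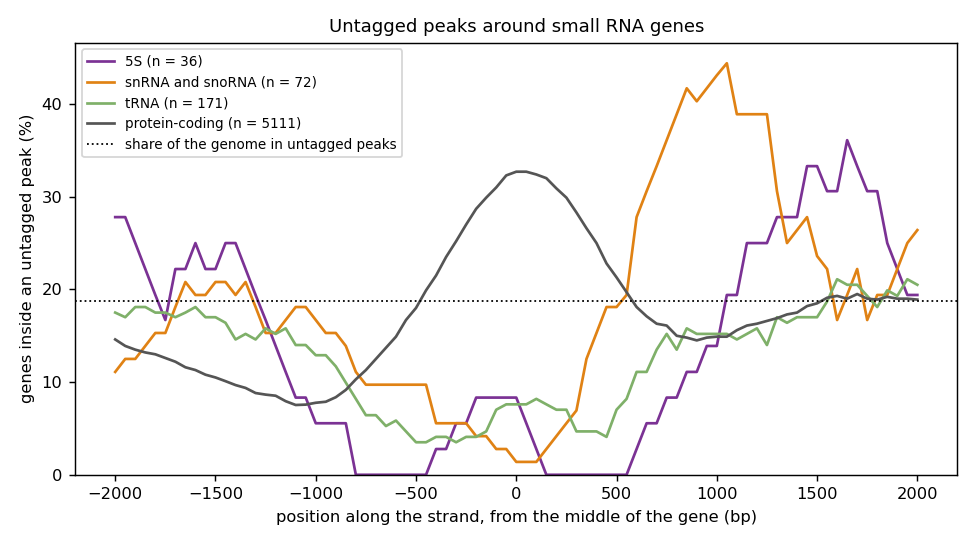
Share of genes inside an untagged peak, in percent, at positions every 50 bp along the strand from the middle of the gene, for 5S, snRNA and snoRNA, tRNA and protein-coding genes. The dotted line is the 18.7% of the genome that lies in untagged peaks. Protein-coding genes are highest at their middle, while the small RNA genes are low there. Downstream, snRNA and snoRNA genes reach values above the dotted line, and so do 5S genes farther out (36.1% at 1650 bp).

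Coverage around these genes was uneven along the strand. Within 500 bp of the midpoint, 3.24% of bases at 5S genes, 6.38% at snRNA and snoRNA genes and 5.47% at tRNA genes lay in untagged peaks, against 27.6% at protein-coding genes. From 500 to 1000 bp downstream of snRNA and snoRNA genes it was 34.5%, and 11.8% at the same distance upstream. From 1000 to 1500 bp it was 34.6% downstream and 18.0% upstream. For the 49 of them outside protein-coding genes the values at 500 to 1000 bp were 30.4% downstream and 10.8% upstream, and for the 59 loci left after merging neighbours 34.7% and 14.4%. At protein-coding genes the downstream value was 16.4% and the upstream value 11.8%, and at tRNA genes 12.9% and 7.89%. At 5S genes it was 7.22% downstream and 1.9% upstream at 500 to 1000 bp, and 25.3% and 16.7% at 1000 to 1500 bp. Distances run from the midpoint, and median lengths were 1773 bp for protein-coding genes and 123.5 bp for snRNA and snoRNA genes. The stretch from 500 to 1000 bp is thus partly inside many protein-coding genes but mostly outside the small RNA genes. Neighbouring genes also lie at these distances, and their part in the difference between upstream and downstream was not tested.

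Pol III and Pol II members were then set side by side. Pli1 summits were near 5 of 37 Pol III members (13.5%, 4.54 to 28.8%) and 5 of 71 Pol II members (7.04%, 2.33 to 15.7%), the latter from 4 summits. At 50 bp the counts were 3 (8.11%) and 4 (5.63%), and at 1000 bp 6 (16.2%) and 15 (21.1%), so the order of the shares turned with the window. The 15 include the whole run of snoRNA genes that holds snoZ3 and snoZ4, all at a single summit. Shares and intervals count each gene of the run on its own. The intervals overlap at each of these windows, and the difference was not tested. Among all nuclear genes the Pli1 shares were 3.23% at 50 bp and 7.81% at 1000 bp. The median distance to a Pli1 summit was 16104 bp for Pol III and 7711 bp for Pol II members, beside 14757.5 bp for all nuclear genes. Nse2 summits were near 0 of 37 and 1 of 71. Untagged peaks touched 3 of 37 (8.11%, 1.7 to 21.9%) and 1 of 71 (1.41%, 0.0357 to 7.6%). An untagged summit lay within 500 bp of 8.11% of Pol III and 12.7% of Pol II members. Within 1000 bp the shares were 16.2% and 43.7%, so here too the order turned with the window. The intervals of the Pol III and Pol II shares overlap at 500 and at 1000 bp, and the difference was not tested. Among the other nuclear genes of 80 to 440 bp the shares were 26.9% and 47.8%. Among all nuclear genes they were higher still.

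**Figure D4:**
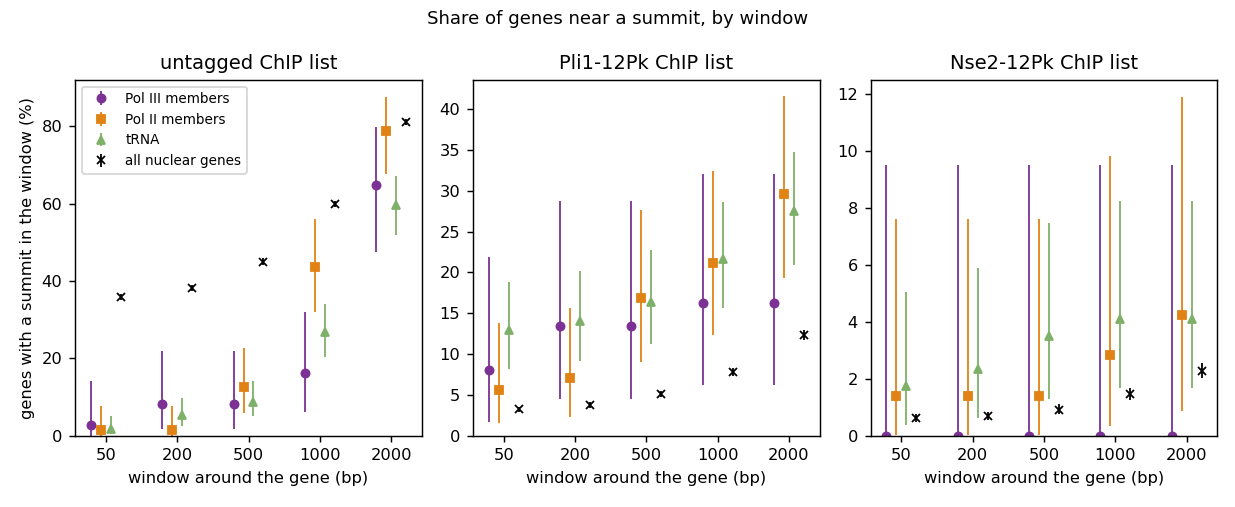
Share of genes, in percent, with a summit within 50 to 2000 bp of the gene in each list, for Pol III and Pol II members, tRNA genes and all nuclear genes, with exact 95% intervals. For Pli1 the Pol III share stays at 16.2% from 1000 bp on while the Pol II share goes on to 29.6% at 2000 bp, and the intervals of both overlap throughout. The vertical axes differ between panels.

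Long regions each carry a single summit, which limits what can be seen at the genes inside them. The 36 5S genes lay in 34 Pli1 regions. The regions with a summit near the 5S gene were 10482 to 32348 bp long (median 12203 bp), and the 29 others had a median of 72226 bp. In regions of up to 20000 bp, 4 of 7 5S genes, 9 of 26 tRNA genes and 76 of 321 protein-coding genes (23.7%) were near the summit. In regions over 50000 bp the counts were 0 of 24, 7 of 100 and 74 of 3517 (2.1%). For snRNA and snoRNA genes they were 1 of 8 and 3 of 43. Where the summit lay elsewhere, it was near a ribosomal protein gene in 8 of the 34 regions and near a tRNA gene alone in 3. Of all 299 Pli1 summits, 33 were near a ribosomal protein gene and 19 near a tRNA gene, and the difference was not tested. Of the 29 summits that lay elsewhere, 21 were in untagged peaks.

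Sequence before and after the genes was not used to choose them. TATA stood in bases 40 to 20 before the start of 27 of 36 5S genes, 5 of 6 snRNA genes and 72.5% of tRNA genes, against 31.8% of snoRNA genes and 18.1% of all nuclear genes. It was thus as common before the snRNA genes, of which only snu6 is made by Pol III. Those letters read the same on both strands, and this window was chosen after the sequences were seen. They were found there in SPRRNA.15, SPRRNA.28, SPRRNA.39 and SPRRNA.26 and not in SPRRNA.34 or SPRRNA.06. The longer TATAAA, which contains TATA, was in the 50 bases before 38.9% of 5S genes, 4 of 6 snRNA genes, 15.2% of tRNA genes, 12.1% of snoRNA genes and 6.31% of all genes, read on the strand of the gene. The tRNA share was close to the snoRNA share. TTTT, the letters at which Pol III stops, was found on the strand of the gene within 25 bases of the end of 88.9% of 5S and 95.3% of tRNA genes, beside 3 of 6 snRNA genes, 45.5% of snoRNA genes and 27.5% of all genes. The B-box, searched on both strands of the members, had no exact match in any of them. On the strand of the gene it was exact in 56.1% of tRNA genes and in 0.441% of the other nuclear genes of 80 to 440 bp. With up to 1 mismatch it was found in snu6 and in snR96, whose match is GTTTCGATCCC, in 68.4% of tRNA genes and in 1.32% of the genes of 80 to 440 bp.

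Repeated sequence sets 5S apart from the other members. The file headers say that only uniquely mapped reads went into the lists. Within 150 bp, 34 of 36 5S genes had 50-base words that occur elsewhere in the genome (median 84.5 words), against 2 of the 72 snRNA and snoRNA genes. At the 5 Pli1 summits near 5S genes the number of such words ran from 17 at SPRRNA.15 to 102 at SPRRNA.28. The part of repeated sequence in the 5S counts was not tested.

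Genes for the proteins that work with these RNAs were set beside them. Of 20 genes for Pol III and its factors, untagged peaks touched 10, close to the 54.3% of protein-coding genes. Pli1 summits were near 2 (10.0%, 1.23 to 31.7%, an interval that holds the 4.6% of protein-coding genes), bdp1 (0 bp) and brf1 (67 bp), which both code for subunits of TFIIIB. Of 28 genes for snoRNP and snRNP proteins, untagged peaks touched 8 (28.6%, 13.2 to 48.7%) and no Pli1 summit was near any, which allows a share of up to 12.3% and so the 4.6% of protein-coding genes. No Nse2 summit was near either list. Of 3 further small RNA genes, srp7, the signal recognition particle RNA, was untouched. Untagged peaks touched rrk1 (RNase P RNA) and mrp1 (RNase MRP RNA), and no Pli1 summit was near any of these 3.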

How the data were processed

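Calibrated ChIP-seq lists of 3 ChIP libraries, 1 per strain, were analysed, grouped by the strain and fraction in their titles. The 3 inputs were not analysed on their own. The deposited unit is the authors' score, a whole number per region, with a summit offset. Its scale is not stated, and 3 further columns (fold enrichment, p and q) hold 0 throughout. Cutadapt, Bowtie2, SAMtools, MACS3 and the build sacCer3 are named in the submitters' processing notes, with no version or role. Calls rest on uniquely mapped reads and a p-value track, per the file headers. Per the labels' protocols, ChIP over input was scaled by the budding yeast calibrator. Each list belongs to 1 library. The S. pombe build is not stated, but sequence names and versions match ASM294v3.

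From these lists, distances, overlaps of at least 1 bp and motif matches were computed with Python 3.11.15, NumPy 2.4.6 and Biopython 1.88, intervals with SciPy 1.17.1 and figures with Matplotlib 3.10.9. The code was tested on simulated data. The 5S unit was placed by aligning the most common copy to each gene with 200 bp either side. Genes within 2 kb of a chromosome end were left out of the coverage around midpoints. No test was made, since each strain has 1 library. Alternatives changed the window, the point measured from, the summits and peaks used and the counting of loci.

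The members and lists were chosen with earlier results of these data known. Genes were named if they had a summit within 200 bp or an untagged peak on them, if they are spliceosomal, if they were among the 3 nearest beyond 200 bp in a list, or if they were the 5S copies most unlike the common one. Other genes were named where they lie within 200 bp of such a summit, as hosts, or from the lists of proteins and other small RNAs. SPRRNA.36, named as the 5S gene nearest to an Nse2 summit, was chosen after its value was seen.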

Additional observations from a re-analysis of the deposited data

How the results depend on the processing

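Of the counts recomputed under the alternatives, 68 stayed within 1.5 times the value given above and 18 did not. The 68 include counts of 0 that stayed 0, as for 5S and snRNA genes near an Nse2 summit. They also include counts that could not change, as with tagged regions of 10 kb or longer alone. The tally is therefore no measure of stability. With a 50 bp window, 5S genes near a summit fell from 3 to 1 (untagged) and from 5 to 3 (Pli1). With 500 bp, snRNA genes went from 0 to 1 (untagged) and 1 to 2 (Pli1), and snoRNA genes from 1 to 8 (untagged) and 4 to 10 (Pli1). Over all nuclear genes the shares at 50 and 500 bp were 35.9% and 45.0% (untagged) and 3.23% and 5.14% (Pli1). Regions under 10 kb alone left 0 5S, 0 snRNA and 0 snoRNA genes near a Pli1 summit and 0 snoRNA genes near an Nse2 summit, since none of the summits found lies in such a region. Measured from midpoints, 3 5S genes were near a Pli1 summit, as when only the nearest gene counted or only summits outside untagged peaks. Outside untagged peaks, 0 snoRNA genes were near an Nse2 summit. With untagged scores of at least 100, 1 5S gene was near an untagged summit and 1 was touched. Counting peaks within 200 bp, 9 snRNA and snoRNA genes were touched, and 2 after merging peaks within 500 bp. Leaving out summits in untagged peaks can only keep or lengthen the distance to a summit. The median distance to a Pli1 summit went from 15549 to 45682.5 bp for 5S genes. It went from 8018 to 27244.5 bp for snoRNA genes and from 9915 to 27105 bp for tRNA genes. Leaving out SPRRNA.41 and SPRRNA.54, measuring from the aligned 5S unit, and counting snoRNA loci, all added after seeing the data, left every count within 1.5 times the value above. No paired analysis was possible because each strain has 1 ChIP library. Replicates, depth and the scale of the score are the main limits: counts of 0 to 5 genes carry wide intervals, and each long region offers 1 summit.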
